A study of Homo sapiens with 13 samples.

Results

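REST, the RE1-silencing transcription factor, and 9 genes for the corepressors it works with were followed in 2 small cell lung cancer (SCLC) cell lines treated with FHD-286. The 10 genes were taken by symbol (*REST*, *RCOR1*, *RCOR2*, *RCOR3*, *KDM1A*, *HDAC1*, *HDAC2*, *SIN3A*, *EHMT1* and *EHMT2*), and all 10 were found among the 56831 genes listed. FHD-286 is an allosteric inhibitor of the ATPases SMARCA4 and SMARCA2 (BRG1 and BRM), the motors of the SWI/SNF chromatin remodelling complexes. The study asked what these ATPases do for the neuroendocrine state of SCLC. RNA was sequenced from untreated H82 (n = 3), H82 with FHD-286 (n = 3), untreated H146 (n = 3) and H146 with FHD-286 (n = 4). Treated cells had received 100 nM for 14 days, and the labels give no treatment, and name no vehicle, for the untreated cells. H82 and H146 are established lines labelled wild type, each a single line, so a difference between them is a difference between 2 lines and not between 2 tumour classes.

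REST binds a DNA element called RE1 and silences neuronal and neuroendocrine genes in cells that are not neurons. Both ends of the protein recruit repressors. The C-terminal end holds CoREST (encoded by *RCOR1* and its paralogs *RCOR2* and *RCOR3*), the histone H3 lysine 4 demethylase LSD1 (*KDM1A*) and the deacetylases HDAC1 and HDAC2, while the N-terminal end holds SIN3A, again with the deacetylases. G9a (*EHMT2*) and GLP (*EHMT1*) methylate histone H3 lysine 9 at REST-bound genes. In neuroendocrine cells the splicing factor SRRM4 can add a short exon, called N3c, to the *REST* transcript, which gives a truncated protein, REST4, with little repressor activity.

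The sequence of that exon is shown because gene-level values cannot separate REST from REST4. In hg38 with GENCODE release 44, *REST* lies at chr4:56907876-56966808 on the plus strand and has 12 annotated transcripts. An exon of 50 bases at chr4:56927615-56927664, exon number 4, occurs in 3 of them (REST-202, REST-204 and REST-205). Its 38 coding bases and the stop codon that closes them, in capitals, read as follows, on the plus strand.
Exon of REST4: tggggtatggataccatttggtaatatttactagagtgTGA
The study's own pair of primers for REST4 is shown next, since it reads this exon.
Forward: gaacgcccatataaatgtgaact
Reverse: tggcttctcacccatctaga
The forward primer matched 9 of the 12 transcripts and the reverse primer matched only the 3 that carry the exon. The deposited values hold 1 number per gene and library, so the *REST* values below are the sum of full-length and REST4 transcripts, and how they divide was not analysed here.

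The other members lie, in the same build, at chr14:102592649-102730561 (*RCOR1*, plus strand), chr11:63911230-63917164 (*RCOR2*, minus), chr1:211258377-211316385 (*RCOR3*, plus), chr1:23019443-23083689 (*KDM1A*, plus), chr1:32292083-32333635 (*HDAC1*, plus), chr6:113933028-114011308 (*HDAC2*, minus), chr15:75369379-75455842 (*SIN3A*, minus), chr9:137618992-137870016 (*EHMT1*, plus) and chr6:31879759-31897698 (*EHMT2*, minus). All are protein-coding. *HDAC1*, *RCOR2* and *RCOR3* overlap no other annotated gene. The other 7 overlap between 1 and 6 genes, most of them antisense or small RNAs or pseudogenes, and *REST* overlaps *NOA1* on the opposite strand. Whether the counting used strand is not given in the sources used here, so reads from such neighbours cannot be told apart.

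Values are TPM (length-scaled transcript abundance), which divide by gene length and sum to 1000000 in each library. The reads per library are not in the values, so no counting interval or detection limit is given. Since RNA came from bulk cultures, fewer cells of a kind and less RNA per cell cannot be told apart. Of 6 neuroendocrine SCLC markers, 6 reached 1 TPM in H82 and 5 in H146, where *NEUROD1* stayed below, and their sum was 266 to 736 TPM in treated against 699.6 to 781 TPM in untreated H82 and 1030 to 1289 against 1441 to 1751 TPM in H146. In H146 the largest was *INSM1*, with means of 1230 TPM untreated and 869.8 TPM treated, and *DLL3* went from 70.5 to 46.3 TPM. There *SYP*, *CHGA* and *NCAM1* had overlapping groups, and the mean of *NCAM1* was higher with treatment (51.0 and 55.8 TPM). The sum of 3 epithelial markers was 1.39 to 3.16 TPM in untreated and 7.90 to 63.0 TPM in treated H82, and 1294 to 1331 and 450.2 to 534 TPM in H146. The sum of 4 fibroblast markers was higher with treatment in both lines without overlap, at 0.912 to 1.84 TPM in untreated and 6.99 to 32.0 TPM in treated H82, and at 6.43 to 8.45 and 12.2 to 18.9 TPM in H146, where *DCN* was under 1 TPM throughout. Among these markers, *COL1A1* had overlapping groups in both lines. Of all genes tested, 16.4% in H82 and 35.7% in H146 were higher without overlap. For 4 leukocyte markers it was 2.78 to 7.47 and 2.34 to 4.28 TPM in H82 and 6.57 to 9.47 and 7.31 to 18.0 TPM in H146, and the T cell gene *CD3E* was under 1 TPM throughout. The mitochondrial share of the TPM was 22.1% to 24.1% in untreated and 12.3% to 14.9% in treated H82, and 7.56% to 8.86% in untreated and 3.82% to 11.4% in treated H146. With treatment, the median log2 difference of all genes tested was -0.56 in H82 and 0.25 in H146. After scaling by the median of ratios (each library divided by its median ratio to the geometric mean library of its line) these medians were -0.14 and -0.02. Member differences are therefore given on both scales, and each is to be read against these medians. For the difference between the lines, H146 minus H82, the median was 0.73 on the deposited scale and 0.14 under the median of ratios. Of 78 genes with at least 20 TPM in every untreated H146 library and 0 in every untreated H82 library, the summed level was 179.8 TPM in treated H82 replicate 2, 40.4 and 14.6 TPM in the other treated H82 libraries, and 6531 to 6899 TPM in untreated H146. Treated H146 replicates 3 and 4 stood apart from replicates 1 and 2, with correlations of their deviations from the group mean between -0.51 and -0.77 across the pairs. Within the pairs the correlation was 0.131 for replicates 1 and 2 and 0.496 for replicates 3 and 4. Deviations from a shared mean tend to correlate negatively by construction, so the negative values are in part built in. The part of any of these in the results below was not tested.

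*REST* had the lowest mean of the 10 members in every group, with a range that overlapped that of *EHMT1* in treated H82, and it was far lower in H146 than in H82. Untreated H82 held 7.61, 8.64 and 7.46 TPM (replicates 1 to 3), with a mean of 7.91 ± 0.641 (SD, n = 3). Treated H82 held 8.64, 7.74 and 10.5 TPM, with a mean of 8.94 ± 1.38 (SD, n = 3). The groups overlapped, and only replicate 3 of the treated libraries lay above all untreated ones. The log2 difference was 0.15 (SE 0.18, 95% CI -0.28 to 0.58, adjusted p = 0.498, limma). Under the median of ratios the difference was 0.59 (95% CI 0.18 to 1.01, adjusted p = 0.0245, limma) and under quantile normalization it was 0.88 (adjusted p = 0.00518), while without mitochondrial genes it was 0.014 (adjusted p = 0.954). Without treated replicate 3 it was 0.045 on the deposited scale (adjusted p = 0.863). The call for *REST* in H82 thus rests on the scaling.

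In H146 the *REST* level was 0.254, 0.168 and 0.252 TPM without drug and 0.537, 0.520, 1.41 and 1.37 TPM with it. Every treated library was above every untreated one, and treated replicates 3 and 4 were above treated replicates 1 and 2. The means were 0.225 ± 0.0488 TPM (SD, n = 3) and 0.959 ± 0.497 TPM (SD, n = 4). *REST* did not reach 1 TPM in 3 libraries of the line and was not part of the fit across genes. The difference of mean log2(TPM + 1) was 0.64, with p = 0.0857 by an exact two-sided permutation test, where the smallest p that 3 against 4 libraries allow is 0.0286. With a pseudocount of 0.1 in place of 1 the difference was 1.59 (exact p = 0.0286). *REST* was thus low enough in H146 for the added pseudocount to decide the call. A set of 43 genes with at least 20 TPM in untreated H82 and 0 in untreated H146 summed to 10.7 to 27.4 TPM in treated H146, against 2960 to 3361 TPM in untreated H82. The test of the treatment difference between the lines gave 0.49 for *REST* (95% CI -0.15 to 1.13, adjusted p = 0.169, limma), with a pseudocount of 1. With 0.1 the treatment difference was 1.59 in H146 and 0.17 in H82, so the size of the line difference also depends on the pseudocount.

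A ratio within a library does not depend on the scaling between libraries. The log2 ratio of *REST* to the geometric mean of the 9 corepressor genes, a measure added after the data had been seen, was -2.96, -2.74 and -2.94 in untreated H82. In treated H82 it was -2.02, -2.78 and -2.39, which overlaps the untreated range (difference 0.48, exact p = 0.2, the smallest possible being 0.1). In H146 it was -7.53, -8.09 and -7.30 without drug and -6.34, -6.43, -5.17 and -5.25 with it. All 4 treated values were above all untreated ones, with a difference of 1.84 (exact p = 0.0286, the smallest possible). In both lines *REST* stayed the minor component by RNA level, and by this measure its distance below the corepressors in H146 became smaller. The ratio was taken without a pseudocount, on *REST* values of 0.168 to 0.254 TPM in untreated H146. It therefore shares the dependence on the pseudocount that the *REST* level has in H146, and does not settle that call.

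**Figure D1:**
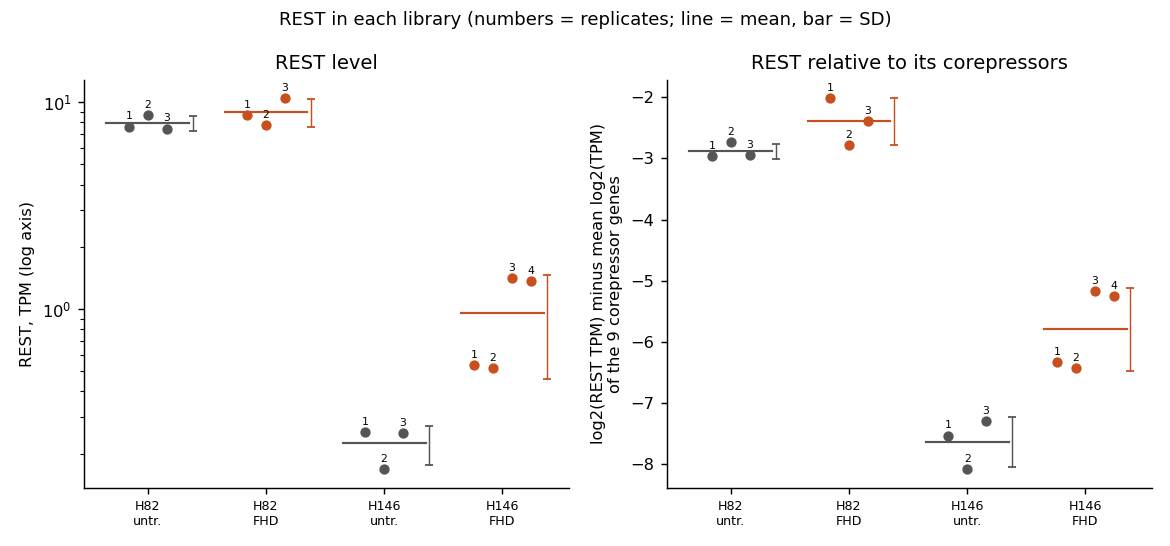
*REST* in each of the 13 libraries, as TPM on a log axis (left) and as the log2 ratio to the geometric mean of the 9 corepressor genes (right), by line and treatment. Numbers name replicates, lines are group means and bars are SD. Untreated H146 lies at 0.168 to 0.254 TPM and treated H146 at 0.520 to 1.41 TPM, while both H82 groups lie between 7.46 and 10.5 TPM.

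Among the other members, the levels without drug spanned from 16.7 TPM (*EHMT1*) to 226 TPM (*HDAC1*) in H82 and from 11.2 TPM (*RCOR1*) to 144 TPM (*HDAC1*) in H146. In untreated H82 the order of means was *HDAC1* (226 TPM), *KDM1A* (219.9), *RCOR2* (102), *HDAC2* (84.9), *SIN3A* (39.0), *EHMT2* (38.6), *RCOR1* (28.5), *RCOR3* (24.6) and *EHMT1* (16.7), with *REST* last. The ranges of *HDAC1* and *KDM1A*, of *RCOR2* and *HDAC2*, of *SIN3A* and *EHMT2*, and of *RCOR1* and *RCOR3* overlapped, so those neighbours are not separated. In untreated H146 the order was *HDAC1* (144 TPM), *KDM1A* (108), *HDAC2* (82.02), *EHMT2* (74.1), *RCOR2* (48.1), *SIN3A* (35.6), *RCOR3* (26.6), *EHMT1* (13.3) and *RCOR1* (11.2), again above *REST*. There only *SIN3A* with *RCOR3* and *EHMT1* with *RCOR1* overlapped. *RCOR2* was the third gene in H82 and the fifth in H146. The tables of the lines were normalized separately to the same sum, and levels were not tested between them.

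In treated H82, 2 of the 10 members passed the test as lower (*RCOR1* and *RCOR3*) and 0 as higher, while 45.5% of all 19770 genes tested were lower and 13.1% were higher. At an unadjusted p under 0.05 the counts were the same, 2 lower and 0 higher. Scaled by the median of ratios, 1 member was lower (*RCOR3*) and 4 were higher (*REST*, *KDM1A*, *HDAC1* and *HDAC2*), against 32.9% and 24.2% of all genes. The median of the 10 log2 differences was -0.13 on the deposited scale, above the median of all genes of -0.56, and 0.35 against -0.14 after scaling by the median of ratios. In treated H146, 3 of the 9 members tested were higher (*RCOR1*, *EHMT1* and *EHMT2*) and 1 was lower (*RCOR3*), against 32.5% higher and 15.5% lower among 19585 genes. With the median of ratios 1 was higher (*RCOR1*) and 3 were lower (*RCOR3*, *HDAC2* and *SIN3A*), against 21.3% and 25.1%. The median of the 9 was 0.27, close to the 0.25 of all genes. The members' counts are thus near or under the shares of all genes in the direction most genes took. *RCOR3* lower in both lines and *RCOR1* higher in H146 were the calls made on both scales. The treatment difference itself differed between the lines for 2 members, *RCOR1* and *EHMT1*, both higher in H146 minus H82 (0 lower, also at an unadjusted p), where 46.5% of 23676 genes were higher in this sense and 13.7% lower. With the median of ratios it was higher for 1 (*RCOR1*) and lower for 4 (*KDM1A*, *HDAC1*, *HDAC2* and *SIN3A*), against 31% and 26.2% of all genes. Of those 4, *HDAC1* was called in the opposite direction under quantile normalization (0.43, adjusted p = 0.0429), and *KDM1A* and *SIN3A* were not called there.

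**Figure D2:**
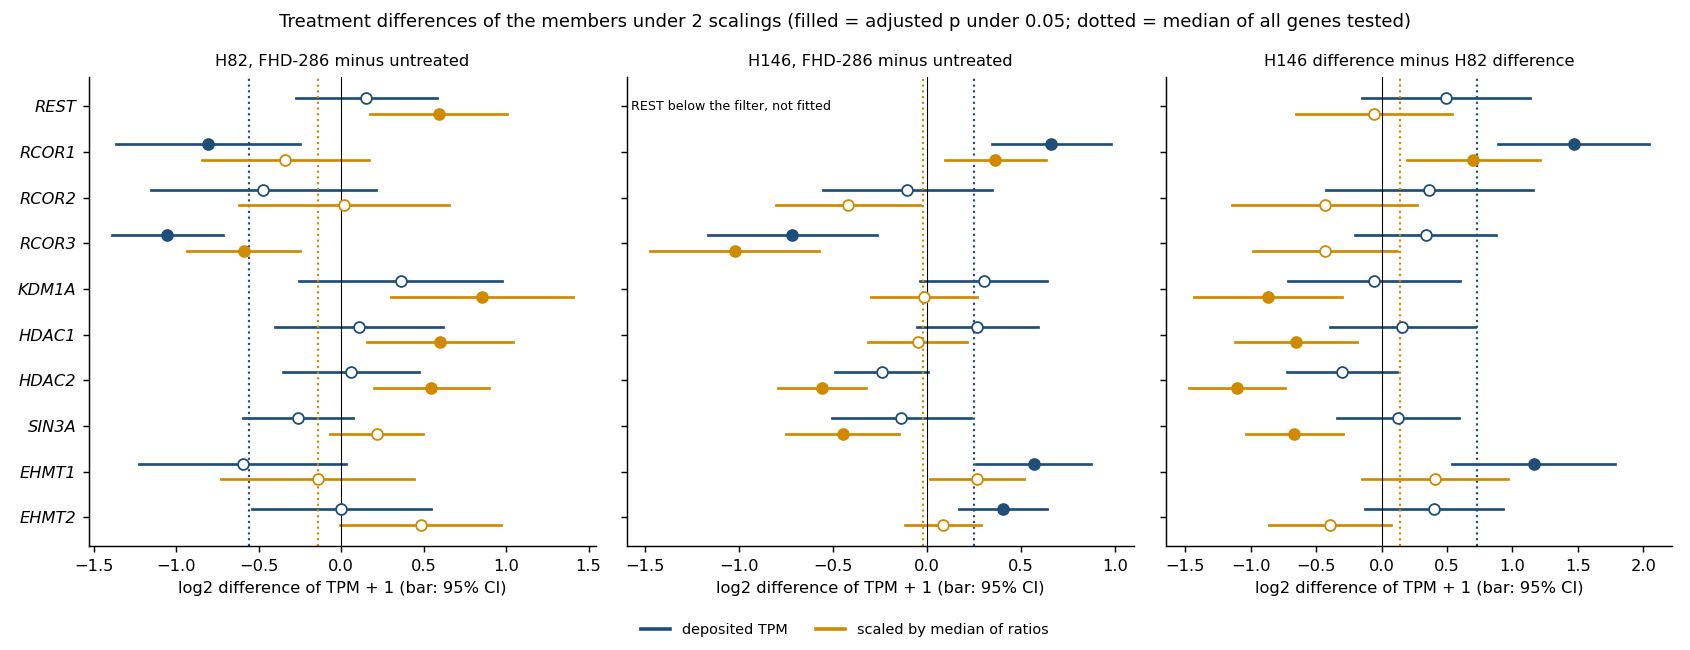
Log2 differences of TPM + 1 between FHD-286 and untreated libraries for the 10 members in H82 (left) and H146 (middle), and the difference between the lines (right), with 95% confidence intervals. Blue is the deposited scale, orange the median of ratios, filled points have an adjusted p under 0.05, and dotted lines are medians of all genes tested. *RCOR3* lies left of 0 in both lines on both scales, and *RCOR1* is the one member whose difference between the lines is filled on both.

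The CoREST scaffold genes moved in different ways. CoREST links LSD1 and the deacetylases to REST, and its 3 genes encode related scaffolds. *RCOR3* was 24.7, 25.7 and 23.6 TPM in untreated H82 and 12.4, 10.7 and 11.1 TPM in treated H82. The groups stood well apart, with less spread than for most members. This gave a log2 difference of -1.06 (SE 0.14, adjusted p = 0.000945, limma), or -0.59 under the median of ratios (adjusted p = 0.0116).

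In H146 *RCOR3* was 31.1, 26.6 and 22.2 TPM without drug and 12.9, 21.6, 15.1 and 14.2 TPM with it. Treated replicate 2 was nearest to the untreated range, and the groups did not overlap. On the log2 scale the difference was -0.72 (SE 0.20, adjusted p = 0.0167, limma), or -1.02 under the median of ratios (adjusted p = 0.00386). On the deposited scale the call was lost without untreated replicate 1 (-0.60, adjusted p = 0.0759) or untreated replicate 2 (-0.71, adjusted p = 0.0539). The test of the line difference for *RCOR3* gave 0.34 (95% CI -0.20 to 0.88, adjusted p = 0.258, limma), and -0.43 (95% CI -0.98 to 0.12, adjusted p = 0.161) under the median of ratios, so neither sign is settled.

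*RCOR1*, the founding CoREST gene, was 27.9, 32.1 and 25.6 TPM in untreated and 10.96, 19.6 and 18.2 TPM in treated H82. All treated libraries were below all untreated ones, and treated replicate 1 was the lowest. The log2 difference was -0.81 (SE 0.24, adjusted p = 0.0224, limma). It was -0.34 and no longer called under the median of ratios (adjusted p = 0.213), and the call was also lost without untreated replicate 1 (adjusted p = 0.0659) or untreated replicate 2 (adjusted p = 0.0820).

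In H146 the same gene rose. *RCOR1* was 11.9, 12.3 and 9.40 TPM without drug and 16.9, 18.3, 18.4 and 19.1 TPM with it, with no overlap and little spread among the treated libraries. This gave a log2 difference of 0.66 (SE 0.14, adjusted p = 0.00534, limma), and 0.36 (adjusted p = 0.0349) under the median of ratios. The treatment difference in H146 minus that in H82 was 1.47 (95% CI 0.89 to 2.05, adjusted p = 0.000497, limma). Under the median of ratios the difference for *RCOR1* was 0.70 (95% CI 0.19 to 1.21, adjusted p = 0.0218).

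*RCOR2*, the CoREST gene with the highest level in both lines, gave no call. It was 113, 88.1 and 106 TPM in untreated and 46.7, 103 and 80.6 TPM in treated H82, where replicate 1 was far below the others. On the log2 scale the difference was -0.47 (95% CI -1.15 to 0.21, adjusted p = 0.199, limma), and 0.015 under the median of ratios (adjusted p = 0.965). In H146 it was 48.4, 51.0 and 45.1 TPM without drug and 40.0, 32.3, 56.1 and 54.3 TPM with it, so the treated libraries lay on both sides of the untreated ones. The log2 difference there was -0.11 (95% CI -0.56 to 0.34, adjusted p = 0.678, limma), and -0.42 under the median of ratios (adjusted p = 0.0701).

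The makeup of the CoREST family can be read without scaling, as the share of each gene in the sum of the 3. The *RCOR1* share, examined after the data had been seen, was 13.03%, 13.7% and 12.3% in untreated H146 and 24.2%, 25.4%, 20.6% and 21.8% in treated H146. The groups were apart, with a difference of 10.0 percentage points (exact p = 0.0286, the smallest possible). In H82 the *RCOR1* share was 16.9%, 22.01% and 16.5% without and 15.7%, 14.7% and 16.6% with drug, which overlap (exact p = 0.2, the smallest possible being 0.1). The *RCOR3* share, also examined afterwards, had a mean of 30.8% ± 2.75 (SD, n = 3) in untreated and 20.3% ± 6.42 (SD, n = 4) in treated H146, but treated replicate 2, at 29.9%, lay within the untreated range (exact p = 0.114). *RCOR2* made up 65.6% ± 4.53 (SD, n = 3) of the sum in untreated H82 and 72.5% ± 5.36 (SD, n = 3) in treated H82 (exact p = 0.3). In H146 it was 56.2% ± 2.95 (SD, n = 3) and 56.7% ± 8.29 (SD, n = 4) (exact p = 0.943). By mean, *RCOR2* had the largest share of the summed CoREST TPM in every group. Of the CoREST shares in H146, only that of *RCOR1* had an exact p under 0.05. No share in H82 could reach that with 3 against 3 libraries, so these tests cannot set the lines apart.

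*KDM1A* encodes LSD1, the demethylase that CoREST carries. It was 218, 227 and 216 TPM in untreated H82 and 186, 335 and 361 TPM in treated H82. Treated replicate 1 was below and the other 2 were above all untreated libraries. The log2 difference was 0.36 (95% CI -0.26 to 0.98, adjusted p = 0.271, limma). Without treated replicate 1 it was 0.66 (adjusted p = 0.000561), and under the median of ratios, with all libraries, it was 0.85 (adjusted p = 0.0182). In H146 *KDM1A* was 112, 112 and 102 TPM without drug and 126, 108, 149 and 159 TPM with it. Treated replicate 2 fell inside the untreated range, and replicates 3 and 4 were the highest. This gave a log2 difference of 0.30 (95% CI -0.04 to 0.64, adjusted p = 0.124, limma), and -0.02 under the median of ratios (adjusted p = 0.922). Without treated replicate 2 it was 0.40 (adjusted p = 0.0193). The line difference was -0.06 on the deposited scale (adjusted p = 0.876) and -0.87 under the median of ratios (adjusted p = 0.0131).

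*HDAC1* and *HDAC2* encode the class I deacetylases shared by the CoREST and SIN3 complexes. *HDAC1* was 219.9, 227 and 231 TPM in untreated and 178, 269 and 302 TPM in treated H82, again with replicate 1 below and the others above the untreated range. Its log2 difference was 0.11 (adjusted p = 0.685, limma), 0.34 without treated replicate 1 (adjusted p = 0.00861) and 0.60 under the median of ratios (adjusted p = 0.0300). The line difference of *HDAC1* was 0.16 on the deposited scale (adjusted p = 0.608), -0.65 under the median of ratios (adjusted p = 0.0208) and 0.43 under quantile normalization (adjusted p = 0.0429), so its direction depends on the scaling. *HDAC2* was 81.4, 90.6 and 82.8 TPM in untreated and 70.7, 93.7 and 105 TPM in treated H82. On the log2 scale the difference was 0.06 (adjusted p = 0.786, limma), and 0.55 under the median of ratios (adjusted p = 0.0169).

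In H146 the *HDAC2* share of the deacetylase genes was lower with drug, while neither gene was called on the deposited scale. *HDAC1* was 149, 151 and 133 TPM without and 151, 153, 191 and 205 TPM with drug, a log2 difference of 0.27 (95% CI -0.05 to 0.59, adjusted p = 0.144, limma), although the groups did not overlap. Under the median of ratios that difference was -0.05 (adjusted p = 0.743). *HDAC2* was 87.1, 76.7 and 82.2 TPM without and 68.4, 63.7, 69.5 and 75.4 TPM with drug, also with no overlap. Its log2 difference was -0.24 (95% CI -0.49 to 0.01, adjusted p = 0.0968, limma), and -0.56 under the median of ratios (adjusted p = 0.00311). The *HDAC2* share of the summed deacetylase TPM, which needs no scaling, was 36.9%, 33.7% and 38.2% in untreated and 31.1%, 29.3%, 26.7% and 26.9% in treated H146. That is a difference of -7.77 percentage points with no overlap (exact p = 0.0286, the smallest possible). In H82 the share was 27.3% ± 1.08 (SD, n = 3) and 26.7% ± 1.53 (SD, n = 3), which overlap (exact p = 0.5, the smallest possible being 0.1). For *HDAC2* the line difference was -0.30 (adjusted p = 0.198) on the deposited scale and -1.11 (adjusted p = 0.000172) under the median of ratios.

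*SIN3A* encodes the scaffold at the other end of REST. It was 39.4, 40.3 and 37.4 TPM in untreated and 28.5, 32.9 and 36.2 TPM in treated H82, with all treated libraries below the untreated ones. The log2 difference was -0.26 (95% CI -0.60 to 0.07, adjusted p = 0.152, limma), and 0.22 under the median of ratios (adjusted p = 0.159), so its sign depends on the scaling. In H146 it was 40.9, 37.9 and 28.01 TPM without drug and 28.8, 29.2, 33.5 and 36.6 TPM with it, and the groups overlapped widely. This gave a log2 difference of -0.14 (adjusted p = 0.511, limma), and -0.45 under the median of ratios (adjusted p = 0.0232).

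G9a and GLP work as a heterodimer, and with all libraries, on the deposited scale, their genes passed the test in H146 but not in H82. *EHMT1* was 18.0, 14.6 and 17.4 TPM in untreated and 6.92, 12.0 and 14.2 TPM in treated H82. The ranges did not overlap, but treated replicate 3 lay close to the lowest untreated library. On the log2 scale the difference was -0.60 (95% CI -1.22 to 0.03, adjusted p = 0.0905, limma), and -0.79 (adjusted p = 0.0477) without treated replicate 3. Under the median of ratios, with all libraries, it was -0.14 (adjusted p = 0.647). On both scales it lay close to the median of all genes, -0.56 and -0.14. In H146 *EHMT1* was 14.0, 14.2 and 11.6 TPM without and 18.2, 19.8, 21.4 and 21.0 TPM with drug, a log2 difference of 0.57 (SE 0.13, adjusted p = 0.00877, limma). Under the median of ratios that difference was 0.26 (adjusted p = 0.0787). The line difference for *EHMT1* was 1.16 (95% CI 0.54 to 1.79, adjusted p = 0.00388, limma), and 0.41 (adjusted p = 0.194) under the median of ratios.

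*EHMT2* was 41.7, 35.3 and 38.9 TPM in untreated and 26.9, 46.2 and 46.1 TPM in treated H82, with a log2 difference of 0.002 (95% CI -0.54 to 0.55, adjusted p = 0.995, limma), and 0.48 under the median of ratios (adjusted p = 0.084). In H146 it was 76.4, 74.7 and 71.2 TPM without and 92.3, 94.6, 105 and 101 TPM with drug. The treated H146 libraries were all above the untreated ones by more than the spread in either group. The log2 difference was 0.40 (SE 0.10, adjusted p = 0.0122, limma), and 0.09 under the median of ratios (adjusted p = 0.445). The line difference for *EHMT2* was 0.40 (95% CI -0.13 to 0.93, adjusted p = 0.172, limma) and -0.40 under the median of ratios (adjusted p = 0.132), so a difference between the lines was not shown for it.

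The share of *EHMT2* in the summed *EHMT1* and *EHMT2* TPM was higher in treated H82 and lower in treated H146. In H82 it was 69.8%, 70.8% and 69.1% without and 79.6%, 79.3% and 76.4% with drug, a difference of 8.53 percentage points. The exact p was 0.1, the smallest that 3 against 3 libraries can give. In H146 it was 84.5%, 84.0% and 86.0% without and 83.5%, 82.7%, 83.1% and 82.8% with drug, a small difference of -1.78 percentage points with no overlap (exact p = 0.0286, the smallest possible). Whether these shares differ between the lines was not tested.

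**Figure D3:**
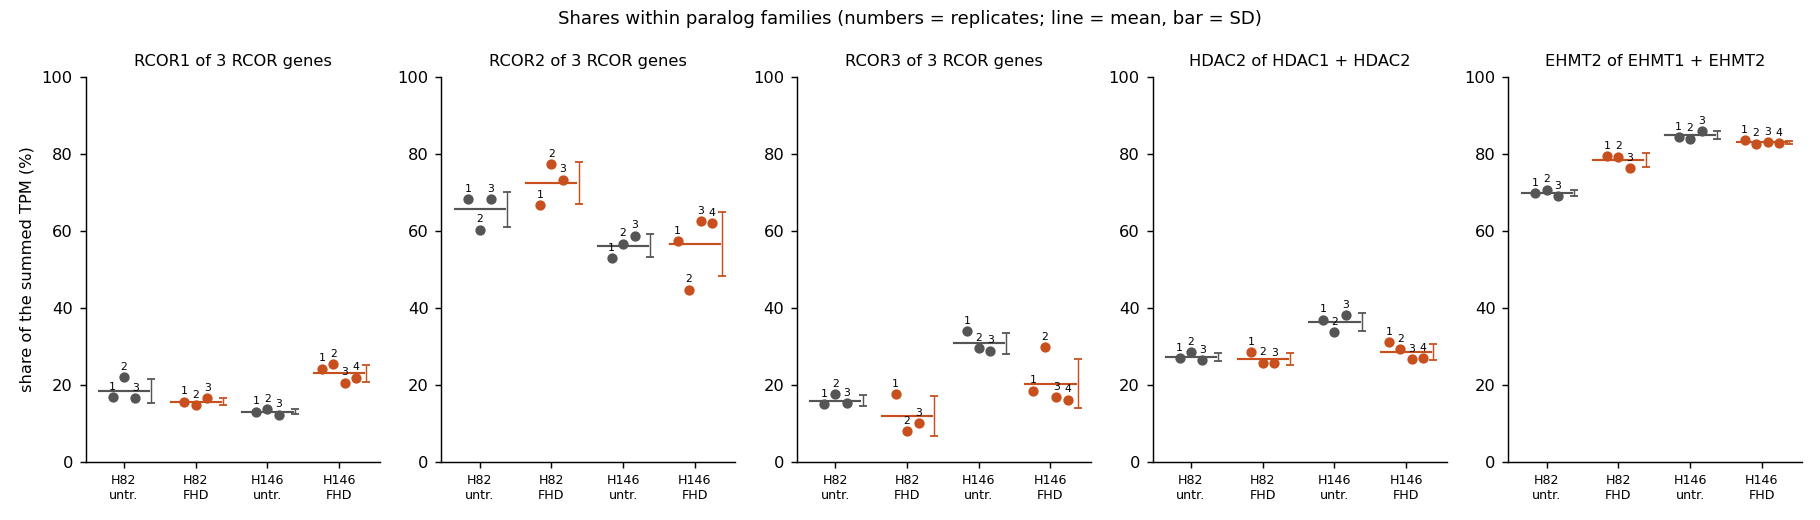
Share of each paralog in the summed TPM of its family (%, axis from 0 to 100) in each library, by line and treatment, with numbers for replicates, lines for means and bars for SD. In H146 the *RCOR1* share rises from 12.3% to 13.7% up to 20.6% to 25.4%, and the *HDAC2* share falls from 33.7% to 38.2% down to 26.7% to 31.1%. In H82 the *EHMT2* share is 69.1% to 70.8% without and 76.4% to 79.6% with drug.

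Treated libraries of a line also differed among themselves. In treated H82, replicate 1 was the lowest of the 3 treated libraries for 8 of the 10 members, *REST* and *RCOR3* being the exceptions, where this held for 44.2% of all genes tested. In H146, replicates 3 and 4 of the treated cells were both above replicates 1 and 2 for 9 of the 10 members, all but *RCOR3*, where this held for 40% of all genes tested. Whole libraries moved too, with median ratio factors of 0.807 in treated H82 replicate 1 against 0.862 and 0.878, and of 1.16 and 1.14 in treated H146 replicates 3 and 4 against 1.08 and 1.05. Treated and untreated libraries did not overlap for 4 members in H82, all lower, where 51.4% of all genes were lower without overlap. In H146 they did not overlap for 5 members that were higher (*REST*, *RCOR1*, *HDAC1*, *EHMT1* and *EHMT2*) and 2 that were lower (*RCOR3* and *HDAC2*), where the shares among all genes tested were 35.7% and 17.3%.

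**Figure D4:**
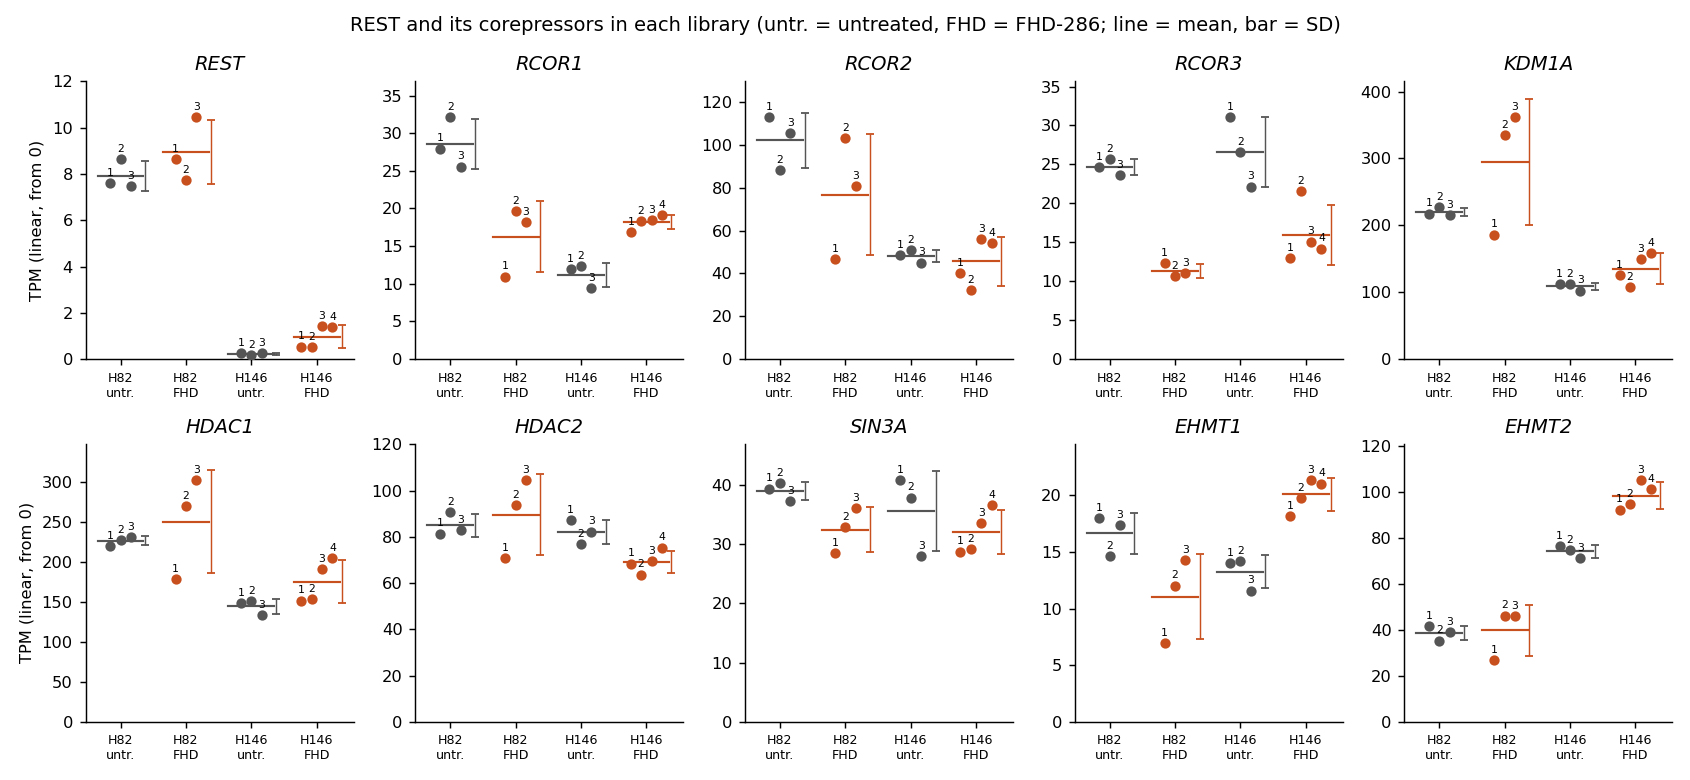
TPM of the 10 members in each library (linear axes from 0, one scale per gene), by line and treatment, with replicate numbers, group means as lines and SD as bars. *RCOR3* lies at 10.7 to 12.4 TPM in treated against 23.6 to 25.7 TPM in untreated H82, while *KDM1A* and *HDAC1* in treated H82 lie on both sides of the untreated libraries.

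Over all 13 libraries, the genes whose log2(TPM + 1) was most like that of *REST* were *RAB18* (Pearson's r = 0.996), *RP11-438N16.1* (0.995), *SPATC1L* (0.995), *CNNM1* (0.995) and *PRDX6* (0.994), out of 24373 genes. *RAB18* encodes a small GTPase of lipid droplets and *PRDX6* a peroxiredoxin. Their means were higher in H82 than in H146, for example 303 TPM against 90.2 TPM for *PRDX6* without drug. Among the members, r with *REST* ran from 0.917 (*KDM1A*) and 0.859 (*HDAC1*) to -0.849 (*EHMT2*). These values are a description, since the 13 points are libraries of only 2 lines that differ in *REST*.

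A further 38 genes encode proteins that sit in the same complexes or that process REST. The test in H82 covered 37 of these and called 16 lower and 8 higher, with a median log2 difference of -0.32 against -0.56 for all genes. In H146 37 were also tested, 4 lower and 11 higher, with a median of 0.24 against 0.25. The shares among all genes are those given above. Scaled by the median of ratios, 11 fell and 13 rose in H82, while 9 fell and 8 rose in H146, so the balance of directions follows the scaling.

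By role, the 9 CoREST partners held 3 lower and 1 higher in H82, and among the 8 tested in H146 0 lower and 2 higher. The 12 SIN3 partners held 5 lower and 5 higher in H82 and 4 lower and 4 higher in H146. The 5 methyl-histone and methyl-DNA partners held 2 lower and 1 higher in H82 and 0 lower and 2 higher in H146. The REST processing and turnover genes held 6 lower and 1 higher among 11 tested in H82, and 0 lower and 3 higher among 12 in H146. On this, the deposited scale, 45.5% of all genes tested were lower and 13.1% higher in H82, and 15.5% and 32.5% in H146. At an unadjusted p under 0.05 the 0 counts in H146 became 1 (CoREST partners), 0 (methyl-histone and methyl-DNA partners) and 1 (processing and turnover). Under the median of ratios the CoREST and the methyl-histone and methyl-DNA partners each held 2 lower and 2 higher in H82, and 1 and 1 in H146. The SIN3 partners then held 2 lower and 6 higher in H82, and 4 and 3 in H146. The processing and turnover genes held 5 lower and 3 higher in H82, and 3 and 3 in H146. Among all genes 32.9% were then lower and 24.2% higher in H82, and 25.1% and 21.3% in H146.

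*SRRM4*, the splicing factor that adds the exon shown above, had the largest fall of these genes in H82. It was 26.0, 27.3 and 25.2 TPM without and 2.47, 1.61 and 2.33 TPM with drug, a log2 difference of -3.12 (SE 0.18, adjusted p = 0.000104, limma). Its relative *SRRM3*, also a splicing factor of neuronal microexons, was 13.7, 13.4 and 14.1 TPM without and 3.22, 2.50 and 1.23 TPM with drug (-2.20, adjusted p = 0.000629). For both genes all 3 treated libraries lay far below the untreated ones.

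In H146 *SRRM4* was 14.5, 17.7 and 11.1 TPM without and 12.5, 10.4, 6.36 and 5.28 TPM with drug, with overlap through treated replicate 1. This gave a log2 difference of -0.73 (SE 0.29, adjusted p = 0.0673, limma), and -1.02 under the median of ratios (adjusted p = 0.0238). Without treated replicate 1 the adjusted p was 0.0308, and without treated replicate 2 it was 0.0397. The libraries with the least *SRRM4*, replicates 3 and 4, were those with the most *REST*. Both were above replicates 1 and 2 for 40% of all genes tested. The share with both below, as for *SRRM4*, was not computed, and a link between *SRRM4* and *REST* was not tested. The *SRRM4* difference was smaller in H146 than in H82, by 2.39 (95% CI 1.59 to 3.20, adjusted p = 0.00016, limma), and by 1.69 under the median of ratios (adjusted p = 0.00252). *SRRM3* stayed between 30.7 and 34.8 TPM in all 7 H146 libraries.

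The largest rises in H82 were *HMG20B*, an HMG-box subunit of the CoREST complex, from a mean of 28.8 to 87.9 TPM (1.58, adjusted p = 0.000304, limma), and *SAP30*, a SIN3 complex subunit, from 23.0 to 73.8 TPM (1.52, adjusted p = 0.0111). In H146 *CTDSP1*, a phosphatase that acts on REST, rose from 14.9 to 49.8 TPM (1.61, adjusted p = 0.00313). The largest falls in H146 were *SAP130* (-0.69, adjusted p = 0.00664) and *ING2* (-0.47, adjusted p = 0.0347), both of the SIN3 complex, and the call for *ING2* was lost when a single untreated library or treated replicate 1 was left out (adjusted p from 0.0607 to 0.126). These 5 genes kept their sign under the median of ratios, with adjusted p values from 0.000202 to 0.00591.

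The RE1 element is the sequence through which REST finds its genes, and matches near genes long known as REST targets are shown to make the readout of the complex concrete. The letters CAGCACC, any 2 bases, then GGACAG were searched on both strands within 5000 bases of each gene's start in hg38. They were found at 10 of 31 RE1 genes (32.3%), against 155 of 20033 protein-coding genes (0.774%), and at 0 of the 10 members and 0 of the 38 partner genes. The list of 31 was made of genes known for such elements, so the higher share is what the choice gives. A missing match says only that these letters are not in the window. The matches of 9 of the 10 genes are shown. The matched letters are in capitals, each sequence is 5′ to 3′ on the strand of the match, and places are from GENCODE release 44.
CHRNB2 (nicotinic receptor subunit), chr1:154567954-154567974, plus strand, in a UTR exon: ttCAGCACCacGGACAGcgcc
CHGA (chromogranin A), chr14:92923523-92923543, plus strand, intron: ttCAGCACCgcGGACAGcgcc
SYP (synaptophysin), chrX:49200122-49200142, minus strand, intron: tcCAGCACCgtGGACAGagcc
SYN1 (synapsin I), chrX:47620070-47620090, minus strand, outside the gene: ttCAGCACCgcGGACAGtgcc
SYT4 (synaptotagmin 4), chr18:43277293-43277313, minus strand, in a UTR exon: ttCAGCACCtcGGACAGaaca
INA (internexin), chr10:103279008-103279028, minus strand, intron: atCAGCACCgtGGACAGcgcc
GRIN1 (NMDA receptor subunit), chr9:137139260-137139280, plus strand, in a UTR exon: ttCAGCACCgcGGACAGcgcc
BDNF (neurotrophin), chr11:27720676-27720696, minus strand, in a UTR exon: ttCAGCACCttGGACAGagcc
CDK5R2 (CDK5 activator), chr2:218961977-218961997, minus strand, in a UTR exon: ctCAGCACCtcGGACAGttcc
CDK5R2, chr2:218963017-218963037, minus strand, outside the gene: ttCAGCACCacGGACAGcgaa

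Of the 31 RE1 genes, 22 were tested in H82, with 15 lower and 2 higher and a median log2 difference of -1.865 against -0.56 for all genes. With the median of ratios the counts were 13 lower and 3 higher and the median was -1.438 against -0.14. The other 9 genes did not reach 1 TPM in 3 libraries. In H146 the test covered 28 and called 3 lower and 9 higher, with a median of 0.06 against 0.25, while scaling by the median of ratios gave 9 lower and 6 higher. The line difference was called for 18 of 28, 17 of them higher in H146 and 1 lower, and under the median of ratios for 15 higher and 3 lower. Among all genes tested, 45.5% fell and 13.1% rose in H82, while in H146 15.5% fell and 32.5% rose. After the median of ratios these shares became 32.9% and 24.2% in H82 and 25.1% and 21.3% in H146. The line difference was higher for 46.5% of all genes and lower for 13.7%, or 31% and 26.2%. In H146 the RE1 counts on the deposited scale lie near these shares.

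Of the 9 genes printed with a match, 8 were tested in H82, 5 were lower (*CHRNB2*, *CHGA*, *SYP*, *SYN1* and *INA*) and 0 were higher at an adjusted p under 0.05 (limma), and the median of ratios gave 4 lower and 0 higher. The counts of 0 were the same at an unadjusted p under 0.05. The share of all genes lower was 45.5%, or 32.9% under the median of ratios. *SYP*, a synaptic vesicle protein used as a neuroendocrine marker, was 202, 193 and 212 TPM without and 31.5, 58.1 and 50.7 TPM with drug (-2.13, adjusted p = 0.000441, limma). *CHGA*, a granule protein, was 158, 114 and 157 TPM without and 14.3, 62.5 and 21.1 TPM with drug (-2.36, adjusted p = 0.00574). Treated replicate 2, in which genes of H146 were also seen, was the highest of the treated libraries for both. The 6 neuroendocrine markers did not move together in H82. *NEUROD1*, a neurogenic factor, also fell, from a mean of 229.7 to 83.6 TPM (-1.53, adjusted p = 0.00418), while *INSM1*, a zinc finger factor, was at 12.5, 15.8 and 14.8 TPM without and 32.1, 296 and 34.0 TPM with drug (2.19, adjusted p = 0.0498). *DLL3* (0.29, adjusted p = 0.362) and *NCAM1* (0.26, adjusted p = 0.186) gave no call.

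In H146, 3 of the 9 printed genes were higher (*CHRNB2*, *CDK5R2* and *SYT4*) and 0 were lower at an adjusted p under 0.05 (limma), and the median of ratios gave 3 higher and 3 lower. Among all genes 32.5% were higher on the deposited scale, so 3 of 9 is near the background. *CHRNB2* was 7.22, 8.94 and 4.58 TPM without and 32.8, 13.5, 43.2 and 44.9 TPM with drug (2.04, adjusted p = 0.00401, limma). In H82 the same gene went from 28.1, 24.2 and 24.2 TPM to 0.466, 4.92 and 1.49 TPM (-3.25, adjusted p = 0.0013). *CDK5R2* rose in all treated H146 libraries, from 96.2, 126 and 104 TPM to 407, 307, 300.1 and 298 TPM (1.58, adjusted p = 0.000148). For *CHRNB2* the treatment difference in H146 minus that in H82 was 5.28 (95% CI 3.82 to 6.75, adjusted p = 3.893e-05, limma). Whether REST or the printed match had a part in either change was not tested.

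Of the RE1 genes without a printed match, the largest falls in H82 were *UNC13A*, a vesicle priming factor, from 40.7, 35.3 and 40.9 TPM to 0.502, 1.84 and 0.410 TPM (-4.46, adjusted p = 0.000128, limma), and *STMN2*, a neuronal microtubule regulator, from a mean of 175 to 19.5 TPM (-3.64, adjusted p = 0.00657). The 2 genes that were higher in H82 were *SCG2*, a secretogranin, at 0.635, 0.572 and 1.13 TPM without and 8.83, 73.0 and 4.41 TPM with drug (3.16, adjusted p = 0.0188), and *VGF*, a neuropeptide precursor, at 1.06, 0.288 and 1.82 TPM without and 2.21, 39.6 and 14.6 TPM with drug (2.69, adjusted p = 0.0310). Both peaked in treated replicate 2, and without that library 1 RE1 gene was higher and *VGF* was at 1.85 (adjusted p = 0.0666). The *VGF* call was also lost when any single other library except treated replicate 1 was left out (adjusted p from 0.0567 to 0.111), and that of *SCG2* without untreated replicate 1 (0.0579) or 2 (0.0678). In H146 *SCG2* fell from 1246, 1253 and 1127 TPM to 733, 925, 302 and 309 TPM (-1.26, adjusted p = 0.0280, and 0.0541 to 0.0803 when a single untreated library or treated replicate 3 or 4 was left out), and *RUNDC3A* from a mean of 143 to 64.0 TPM (-1.16, adjusted p = 0.000284).

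**Figure D5:**
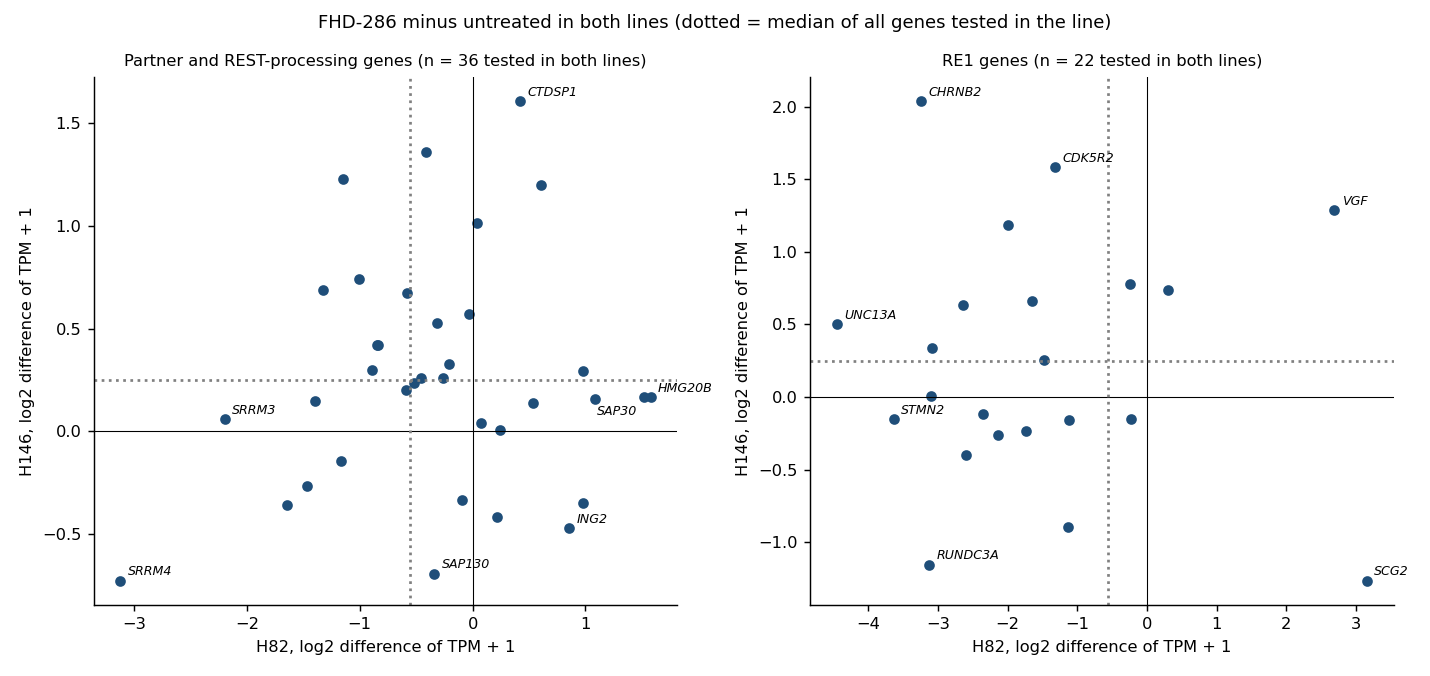
Log2 difference of TPM + 1 between FHD-286 and untreated libraries in H82 (horizontal) and H146 (vertical) for 36 partner and REST-processing genes (left) and 22 RE1 genes (right) tested in both lines. Each point is a gene, the genes named in the text by rule carry their symbol, and dotted lines are the medians of all genes tested, -0.56 and 0.25. *SRRM4* lies at -3.12 and -0.73, and *CHRNB2* lies far left in H82 and at 2.04 in H146.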

How the data were processed

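RNA sequencing of 13 libraries was analysed from 2 tables of TPM deposited by the authors, 1 for each line. Per the labels and the submitters' processing notes, the authors used Trim Galore 0.4.4, STAR and DESeq2 with hg38, and the methods name GENCODE release 28. How gene length was taken, how reads matching several places were treated and whether counting used strand are not given in the sources used here. Each column of TPM sums to 1000000, and depth is unknown, so the spread between libraries sets the precision. The labels do not say that libraries came from separate cultures, so *p* values measure only the spread between these libraries, which may be technical. No 2 libraries held equal values.

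limma 3.58.1 in R 4.3.3 was run on log2(TPM + 1) for each line (linear fit, empirical Bayes moderation with trend). A gene entered when 3 or more libraries of the line had 1 TPM or more. Tests were two-sided, and *p* values were Benjamini-Hochberg adjusted across every gene that entered, with calls made under 0.05. A single fit to all 13 libraries with a line-by-treatment term gave the line difference. All fold changes are on the log2(TPM + 1) scale, which understates changes of low genes. Single values (*REST* in H146, shares) were compared with exact two-sided permutation tests over libraries. The exact p values were not adjusted for the number of such tests, and shares in other gene families were not computed for comparison. Lists are described by counts and medians. Same-numbered libraries did not deviate together (correlations of -0.111 to 0.027), so the numbers were not used as pairs. The fitting was tested on simulated data. Tables and plots were made in Python 3.11.15 (matplotlib 3.10.9, numpy 2.4.6, scipy 1.17.1, pandas 2.3.3).

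The members, the lists (38 partner genes, 31 RE1 genes, markers; from general knowledge) and the rules were chosen with earlier results of these data known. Named list genes are the 2 largest rises and falls per line and list among genes past the threshold with groups that do not overlap, plus *SRRM4*, and the 5 genes most correlated with *REST*. A gene that the rule picked in H146 is not reported here. *SYP*, *CHGA*, the other neuroendocrine markers and the gene names at printed matches were added after their values were seen. Alternatives were a pseudocount of 0.1, no filter, the median of ratios, quantile normalization, removal of mitochondrial genes, a replicate block, moderation without trend, a log2 fold change of at least 1, log2 ratios for shares, and each library left out. The *REST* ratio and the *RCOR1* and *RCOR3* shares were added after seeing the data.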

Additional observations from a re-analysis of the deposited data

Results flagged for a closer look

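The treatment difference of *RCOR1*, the CoREST scaffold, differed between the lines, at 1.47 in H146 minus H82 on the log2 scale (adjusted p = 0.000497, limma interaction). It was between 1.22 and 1.62 with any 1 library left out, and 0.70 (adjusted p = 0.0218) under the median of ratios. For *EHMT1*, which encodes GLP, the difference between the lines was 1.16 (adjusted p = 0.00388). It was between 0.89 and 1.36 with any 1 library left out, but 0.41 under the median of ratios (adjusted p = 0.194) and 0.41 under quantile normalization (adjusted p = 0.188). The median line difference of all genes tested was 0.73 on the deposited scale and 0.14 under the median of ratios. A check for a single distant library, possible only in the 4 treated H146 libraries, marked none of the 10 members, but it cannot see the split of replicates 3 and 4 from replicates 1 and 2 described above.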

How the results depend on the processing

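The scaling between libraries moved the most results. With the median of ratios, the members went to 1 lower and 4 higher in H82 and 3 lower and 1 higher in H146, 5 members differed between the lines, the partner genes had 13 higher in H82 and 9 lower in H146, and 9 RE1 genes were lower in H146. Log2 differences that changed sign under it were 0.015 for *RCOR2* and 0.22 for *SIN3A* in H82, -0.017 for *KDM1A* and -0.050 for *HDAC1* in H146, and, for H146 minus H82, -0.055 for *REST*, -0.44 for *RCOR2*, -0.43 for *RCOR3*, -0.65 for *HDAC1*, -0.67 for *SIN3A* and -0.40 for *EHMT2*. Quantile normalization gave 1 lower and 1 higher member in H82, 2 lower in H146, 13 higher partner genes in H82 and 8 lower in H146, with *HDAC1* at -0.21 in H82 and line differences of -0.40 for *REST*, -0.34 for *RCOR3*, 0.18 for *KDM1A* and -0.29 for *SIN3A*. Of all genes, 5547 of 19770 were then lower and 5067 higher in H82, and 4107 of 19585 lower and 4647 higher in H146. *REST* in H82 became called at 0.59 and 0.88 under these scalings, and in H146 at 1.59 with a pseudocount of 0.1. Without mitochondrial genes 4 members were lower in H82, where 9914 of 19751 genes were lower. *HDAC1* was at -0.045, *HDAC2* at -0.093 and *EHMT2* at -0.15 there, and the line difference of *KDM1A* was 0.077. Asking for a log2 fold change of at least 1 left 1 lower member in H82, 0 lower and 0 higher in H146, 9 lower and 3 higher partner genes in H82, 0 lower and 5 higher in H146, and 4 higher RE1 genes in H146. Of all genes, 6800 of 19770 were then lower and 1356 higher in H82, and 1542 of 19585 lower and 2857 higher in H146. No filter left 1 higher RE1 gene in H82, and moderation without trend left 2 lower partner genes in H146. Of all genes, 2449 of 37980 were higher in H82 without the filter, and 2956 of 19585 were lower in H146 without the trend.

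With the replicate block, which drops treated H146 replicate 4 for want of a partner, 0 members were lower and 1 was higher in H146 and 2 partner genes were lower there. Of all 19585 genes in H146, 2396 were then lower and 4753 higher. In H82 the block left the member counts as they were. The numbers do not mark shared cultures in the labels.

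With 1 library left out, lower members ranged from 1 to 3 in H82 and 0 to 1 in H146, higher members from 0 to 2 in H82, higher RE1 genes in H82 from 0 to 3 and lower partner genes in H146 from 2 to 6. Among all genes, 7617 to 9955 of 19770 were then lower and 1882 to 3820 higher in H82. In H146, 2222 to 3741 of 19585 were lower. Share differences ranged in H146 from -1.49 to 4.47 percentage points for *RCOR2*, -9.06 to -6.82 for *HDAC2*, -2.19 to -1.20 for *EHMT2* and 9.20 to 10.8 for *RCOR1*, and the *REST* ratio from 1.62 to 2.05. With 1 library fewer these exact tests cannot give a p under 0.05, so their p values say nothing of stability. Log2 differences that changed sign ranged from -0.045 to 0.34 (*HDAC1*), -0.060 to 0.22 (*HDAC2*) and -0.12 to 0.25 (*EHMT2*) in H82, from -0.21 to 0.044 for *RCOR2* in H146, and between the lines from -0.36 to 0.12 (*KDM1A*), -0.067 to 0.31 (*HDAC1*) and -0.034 to 0.23 (*SIN3A*). The cause was not tested for any of these. Unknown read depth limits what can be said of *REST* in H146.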
